A study of Drosophila melanogaster with 3 samples.

Results

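The genes for the proteins of the small subunit of the cytosolic ribosome were examined in a chromatin immunoprecipitation experiment on whole prepupae of Drosophila melanogaster. They were taken as the protein-coding genes on the major chromosome arms whose Ensembl symbol starts with RpS and a digit, plus sta, which encodes ribosomal protein SA. Genes for mitochondrial ribosomal proteins and for S6 kinases were left out. This gave 39 genes of 13968 protein-coding genes, and all 39 had the same start and end in the RefSeq annotation. The study holds 1 group of 3 biological replicates, sequenced after immunoprecipitation with an antibody against GFP. All 3 came from line CG9139-GFP, which carries a stable transgene for CG9139 (Rabex-5) with GFP at its C-terminus. Prepupae of both sexes were pooled at 24 hour of age, and chromatin was sheared by sonication to between 200 and 800 bp. The promoter that drives the transgene is not given in the sources used here. The signal is measured against a shared control alignment, and neither the labels nor the notes say whether that control was input or a mock immunoprecipitation. An untagged line was not analysed separately here, so enrichment through the tagged protein and enrichment that the same promoters would show without it cannot be told apart. Because whole animals were used, the tissue in which a gene was bound is also unknown.

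The small subunit reads the messenger RNA: it scans for the start codon and holds the codons while transfer RNAs pair with them. Ribosomal protein genes are among the most strongly transcribed genes of a growing animal, and in Drosophila loss of 1 copy of many of them gives the Minute phenotype of slow development and short bristles. Most use an unusual start of transcription, the TCT initiator, in which the first base of the RNA is a C within a run of pyrimidines. This initiator depends on the TBP-related factor Trf2 rather than on TBP, and the DNA-binding proteins Dref and M1BP have been linked to these promoters. Rabex-5 is known for activating Rab5, a GTPase of early endosomes, and for ubiquitin ligase activity; it is not a known sequence-specific transcription factor, although the labels class the assay as that of a transcription factor.

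The starts of the small subunit genes are shown because most of the results below turn on where binding lay against them. Each line gives 30 bases of the Release 6 (dm6) genome from RefSeq, 15 before and 15 from the transcription start site (TSS) on, read 5′ to 3′ on the strand of the gene. Capitals mark the TCT initiator where it lay within 10 bp of the TSS, searched on the gene's strand as NNCTTTNN with every N a C or a T. Such a word is called the initiator here, although its middle C was not required to fall on the annotated TSS. That C lay at 0 bp at RpS7 but at 9 bp at RpS4, RpS10b and RpS28b, so a match need not mark the true start. Where a gene has several annotated TSSs, the start nearest to such a word is shown, and genes with more starts had more chances to hold it. Of the genes with a peak of high signal, 7 with the initiator were these:
RpS27 (chr3R:25247458-25247487, minus strand): ctgcgatttaccccactTCCTTTTCcgtgt
RpS4 (chr3L:13041786-13041815, plus strand): caccgcccgcaaatctgcctttTCCTTTTC
RpS10b (chrX:19598025-19598054, plus strand): cttcttgtcatcccttccgtttCCCTTTCT
RpS28b (chrX:9554608-9554637, plus strand): ctgtgccgataaccgctcaactTCCTTTTT
RpS5a (chrX:17148250-17148279, minus strand): cacactgccgtaacatgTTCTTTTTcaggc
RpS19a (chrX:16637879-16637908, plus strand): ccaacttcacgcgccttgTTCTTTTTtccg
RpS7 (chr3R:30208928-30208957, minus strand): tcgtggctcgactTCCTTTCCtgtcaaaat
Among the genes with no peak, RpS26 and RpS5b also carried it:
RpS26 (chr2L:18443214-18443243, minus strand): gggtgcgtccacactattTTCTTTCTTTTC
RpS5b (chr3R:14901549-14901578, minus strand): agctccttttaccgtTTCTTTTTcatcctc
The word was missing from this reach at RpS25 and RpS3A, which were bound, and at RpS10a, RpS19b and RpS28a, which were not:
RpS25 (chr3R:11216273-11216302, minus strand): ggccgtttccgccctccatctttctgcatt
RpS3A (chr4:67193-67222, minus strand): gtcgtcaacgtgattcgaccttttccggtt
RpS10a (chr3R:27652745-27652774, plus strand): gaagtttcggtaaatactaatttaagctgg
RpS19b (chr3R:23933516-23933545, minus strand): acttgccaatcgtccattttgactaaagtc
RpS28a (chr3R:30022634-30022663, minus strand): gcagcactcacagcttcaaattcaaatctt

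The stretch upstream is shown for 5 genes as 100 bases, 85 before the TSS and 15 from it on. RpS25, RpS6 and RpS12 were bound, and RpS14a and RpS9 were not. These 5 are examples and do not stand for their groups. Capitals mark the TCT initiator, the DNA replication-related element TATCGATA, which is the site of Dref, and the core promoter word GGTCACAC (Motif 1), the site of M1BP. The last 2 words were sought on both strands.
RpS25 (chr3R:11216273-11216372, minus strand): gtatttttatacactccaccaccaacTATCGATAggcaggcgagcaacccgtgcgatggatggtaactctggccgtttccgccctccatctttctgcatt
RpS6 (chrX:7901317-7901416, minus strand): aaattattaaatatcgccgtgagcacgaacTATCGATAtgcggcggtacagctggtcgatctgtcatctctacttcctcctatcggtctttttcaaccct
RpS12 (chr3L:13023267-13023366, plus strand): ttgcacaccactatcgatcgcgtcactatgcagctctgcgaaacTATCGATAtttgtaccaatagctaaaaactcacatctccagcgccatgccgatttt
RpS14a (chrX:7933657-7933756, plus strand): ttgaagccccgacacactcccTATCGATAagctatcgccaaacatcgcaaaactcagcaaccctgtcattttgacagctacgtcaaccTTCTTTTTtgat
RpS9 (chr3L:9511517-9511616, minus strand): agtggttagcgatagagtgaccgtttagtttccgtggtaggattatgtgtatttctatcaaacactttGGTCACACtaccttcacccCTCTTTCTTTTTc
Dref words stood before RpS25, RpS6 and RpS12 and also before RpS14a. Motif 1 stood before RpS9. The Dref word was thus held by bound and unbound genes alike.

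Small subunit genes were bound far more often than the average gene. A gene was called bound if the summit of a peak lay within 500 bp of 1 of its TSSs, and the peaks were the 4934 dm6 regions that passed the authors' irreproducible discovery rate (IDR) threshold over the 3 replicates. By this rule 23 of the 39 genes were bound (59.0%), against 13.1% of all protein-coding genes (1834 of 13968). Bound were, in order of signal, RpS27, RpS4, RpS10b, RpS16, RpS28b, RpS5a, RpS19a, RpS7, RpS25, RpS3A, RpS18, RpS15Aa, RpS15, RpS23, RpS6, RpS12, RpS14b, RpS27A, sta, RpS29, RpS21 and RpS20, among others. The 16 genes that were not bound included RpS30, RpS3, RpS9, RpS2, RpS14a, RpS13, RpS10a, RpS15Ab, RpS19b, RpS24, RpS26, RpS28-like, RpS28a and RpS5b. Each of the 23 genes had a chosen peak of its own, and RpS18 alone had a second summit in reach.

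The closest family is that of the large subunit, whose genes were bound in 34 of 54 cases (63.0%). Mitochondrial ribosomal protein genes, which serve a separate ribosome, were bound in 3 of 26 cases for the small subunit and in 6 of 47 cases for the large one, and genes of translation initiation factors in 7 of 44 cases (15.9%). Genes of translation elongation factors were bound in 3 of 7 cases. Binding was thus frequent at both subunits of the cytosolic ribosome and near the level of all genes at the mitochondrial ribosome.

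The single replicates differed more at these genes than over the genome. For each replicate the 4934 candidates of highest signal were taken from its list of 30000. A summit of such a candidate lay at 27 of 39 small subunit genes in replicate 1 (69.2%), at 24 in replicate 2 (61.5%) and at 16 in replicate 3 (41.0%). Over all protein-coding genes the same rule gave 14.2% in replicate 1, 14.6% in replicate 2 and 13.0% in replicate 3. The mean over replicates was 57.3% ± 14.6 at small subunit genes (SD, n = 3), 61.1% ± 22.5 at large subunit genes and 14.0% ± 0.820 at all genes. Replicate 3 gave the lowest share in both cytosolic families, and every replicate gave small subunit genes a share above that of all genes.

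**Figure D1:**
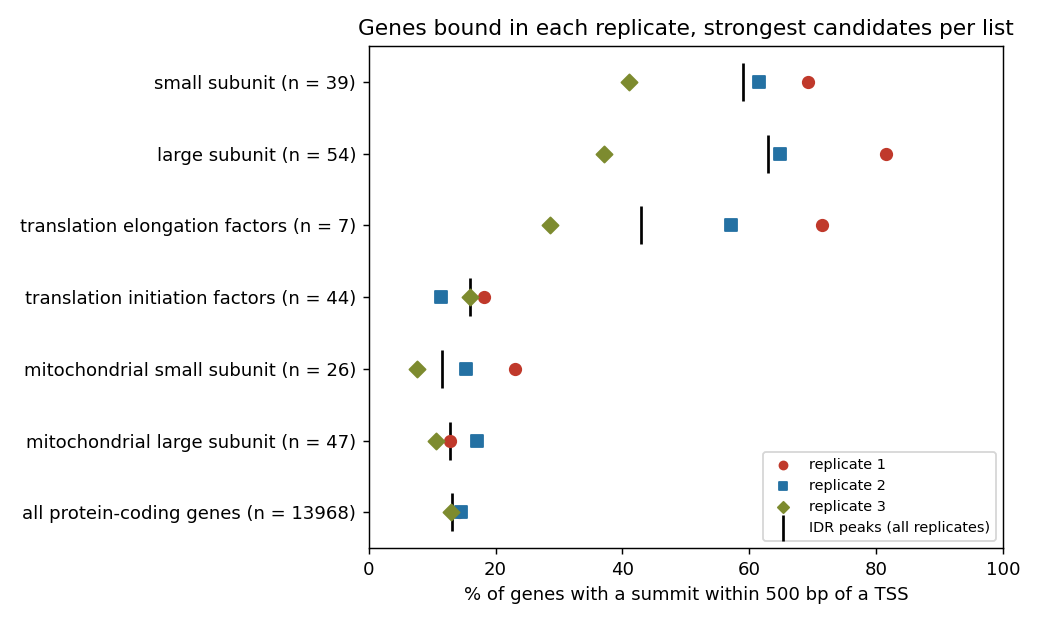
Percent of genes with a summit within 500 bp of a TSS (x axis) in 7 gene families (rows, small subunit at the top and all genes at the bottom). Coloured points are the strongest candidates of each replicate and black bars the IDR peaks; the small subunit runs between 41.0% and 69.2%, while all genes lie between 13.0% and 14.6%.

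The signal in each list is the authors' enrichment of a region against the control alignment. It differs in scale between lists, so a replicate's signal was divided by the median of that replicate's signals at the IDR peaks, and is called relative signal here; 1 is a typical peak of that replicate. Over the 23 bound genes the median IDR signal was 234, at rank 1459 of 4934, against 259 at the 34 large subunit genes and 184 at the 1777 other bound protein-coding genes. In 20 of the 23 (87.0%) the peak lay above the median signal of the IDR list, against 73.5% at large subunit genes and 56.2% at the others. The authors' -log10 q value stood at its highest listed value at 21 of the 23 genes and was not used to order them.

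The highest signal was at RpS27, which encodes a zinc finger protein of the subunit. Its peak (chr3R:25247354-25247643) had an IDR signal of 522 and rank 287. The relative signal at RpS27 was 4.53 in replicate 1, 1.49 in replicate 2 and 1.65 in replicate 3. All 3 were above 1, but replicate 1 stood well above the others, so the mean of 2.56 had an SD of 1.71.

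RpS4 followed with an IDR signal of 499 at chr3L:13041695-13041957. Its relative signal was 3.41, 2.41 and 2.03 in replicates 1, 2 and 3, which placed it at ranks 216, 370 and 576 of the 3 lists. No other small subunit gene was ranked so high in replicates 2 and 3. RpS10b, the third by signal (389 at chrX:19597937-19598181), had a relative signal of 3.01 in replicate 1, 1.58 in replicate 2 and 1.64 in replicate 3.

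RpS16 and RpS28b came next, with IDR signals of 321 and 318, but replicate 3 did not list a region at either. The relative signal of RpS16 was 2.35 in replicate 1 and 0.968 in replicate 2. At RpS28b it was 2.77 in replicate 1 and 0.943 in replicate 2. The lowest value that replicate 3 lists is 0.195. Whether both genes lay below it there is not known, because the sources used here do not say how regions were left out of the lists. RpS5a, whose gene holds 14 small nucleolar RNA genes, had an IDR signal of 309 and a relative signal of 2.78 in replicate 1, against 0.720 in replicate 2 and 1.04 in replicate 3.

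More even values were found at RpS19a and RpS7. RpS19a, a protein of the subunit's head, had a relative signal of 2.07, 1.58 and 1.48 in replicates 1, 2 and 3. RpS7 had 1.69, 1.27 and 1.26. All 6 values lay above 1, with replicate 1 the highest for each gene. RpS25 had a relative signal of 2.12, 0.959 and 0.940, and RpS3A, the sole small subunit gene on chromosome 4, had 1.90, 0.901 and 1.15. At both, replicate 1 gave the highest value and replicate 2 lay below 1.

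Below these 10 genes the IDR signal lay between 256 at RpS18 and 195 at sta for 9 genes, which include RpS6, the target of S6 kinase. Lower still were RpS29, RpS21 and RpS20. RpS29 had an IDR signal of 139, with a relative signal of 1.03 in replicate 1, 0.980 in replicate 2 and no region in replicate 3. RpS21 had 119, with 1.38 in replicate 1, 0.319 in replicate 2 and 0.266 in replicate 3, so that its rank was 1430, 14064 and 18943 of 30000. RpS20 had 114, with 0.925, 0.879 and 0.359. At RpS21 only replicate 1 placed the gene among its strongest candidates, and at RpS20 replicates 1 and 2 did.

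**Figure D2:**
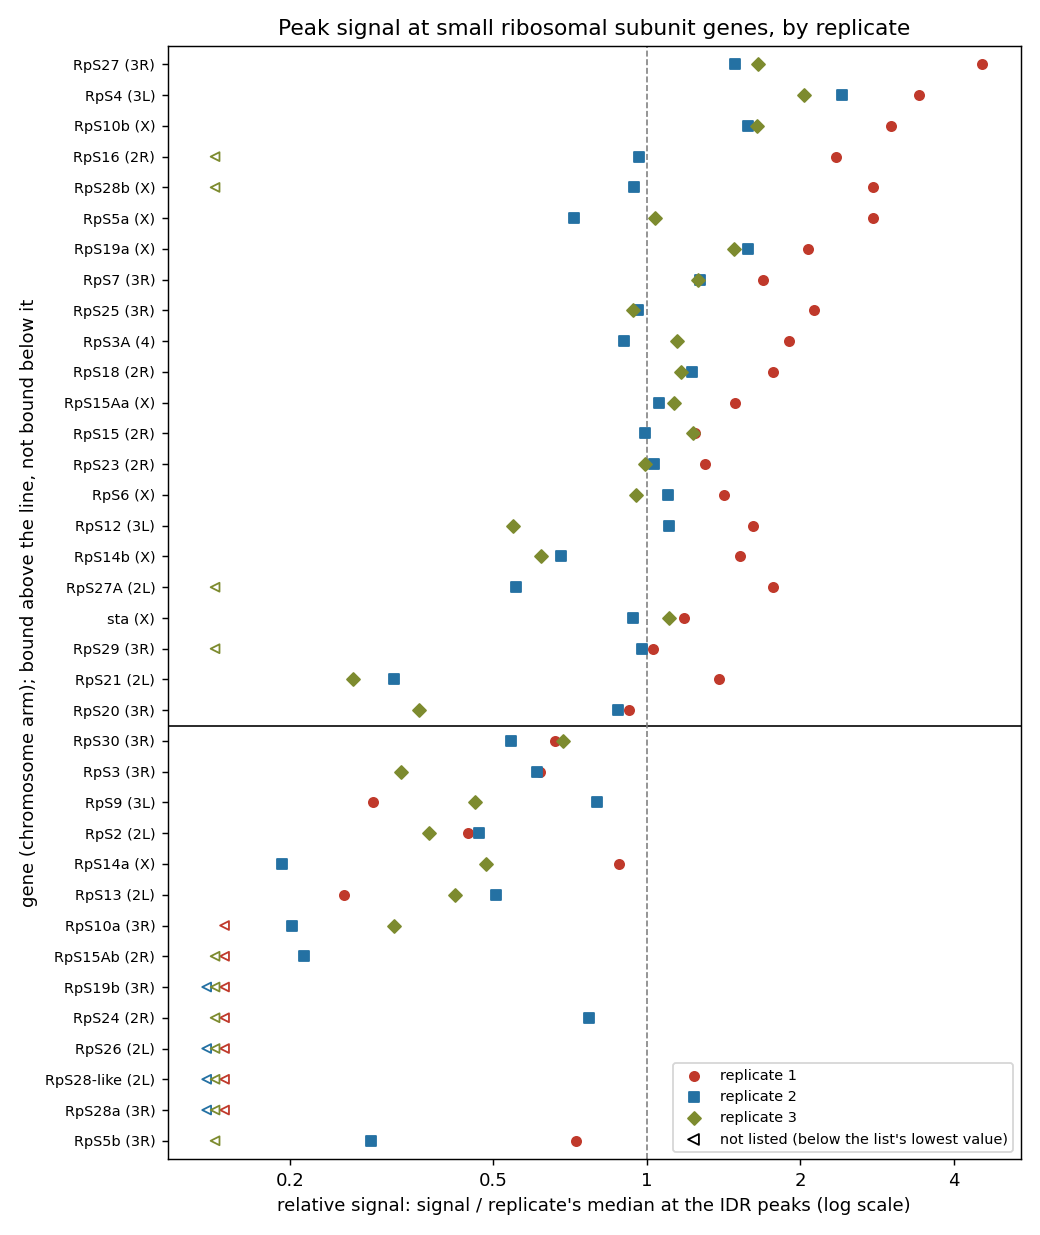
Relative signal on a log scale (x axis; 1 is the replicate's median at the IDR peaks) of 36 of the small subunit genes (rows, with chromosome arm, 22 bound genes above the line and 14 others below it) in replicates 1, 2 and 3. Open triangles at the left edge, offset only so that they can be seen, are genes that a replicate did not list. Their values are unknown, although the key calls them below the list's lowest value. The red points of replicate 1 lie furthest right at most bound genes.

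Replicate 1 ranked these peaks best. Of the 19 bound genes that all 3 replicates listed, 17 had their best rank in replicate 1 (89.5%), 1 in replicate 2 and 1 in replicate 3 (RpS15). Large subunit genes behaved alike, with 25 of 28 (89.3%). At the other bound protein-coding genes the share was 36.7% for replicate 1, 28.7% for replicate 2 and 34.5% for replicate 3. RpS27A lacked a region in replicate 3, and its relative signal was 1.77 in replicate 1 and 0.554 in replicate 2. In all, 22 of the 23 genes ranked higher in replicate 1 than in replicate 2 (95.7%), against 54.0% of all bound genes, and 18 of 19 ranked higher in replicate 1 than in replicate 3 (94.7%), against 51.1%.

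The median relative signal over the bound small subunit genes was 1.69 in replicate 1, 0.993 in replicate 2 and 1.11 in replicate 3. Large subunit genes had medians of 1.85, 1.01 and 0.982, and the other protein-coding genes 1.04, 1.05 and 1.05. The surplus over other genes was thus seen in replicate 1, and in replicates 2 and 3 the median small subunit peak was within 0.1 of the median of other genes. Another 331 bound genes, outside both cytosolic families, had summits within 50 bp of the TSS. Of the 310 that all 3 replicates listed, 81 (26.1%) were ranked best in replicate 1, and the group's median relative signal there was 0.774. Their peaks were weaker, with a median IDR signal of 154 against 234, so this group was not matched in strength. What set replicate 1 apart was not tested, since the labels give the 3 replicates no difference beyond their number.

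Binding at small subunit genes sat on the transcription start. The median position of the summit was 3 bp downstream of the nearest annotated TSS, with quartiles at -19 and 24 bp, negative values being upstream. The full range ran between -101 bp at RpS20 and 74 bp at RpS29. In 18 of 23 genes the summit lay within 50 bp of the TSS (78.3%), and in 22 within 100 bp (95.7%). Of large subunit genes 85.3% had the summit within 50 bp, around a median of -5.5 bp. The other bound protein-coding genes were spread more widely, with a median of -108 bp and 18.6% within 50 bp.

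At RpS27 the summit fell on the TSS itself, at 0 bp, where the distance was taken to the nearer of 2 annotated starts. The start printed above with its TCT initiator is the other one, and the summit lay at -42 bp from it. RpS4 had it at 13 bp, RpS10b at -2 bp and sta at 3 bp. RpS28b had it at -23 bp and RpS5a at -35 bp, while RpS25 at -58 bp and RpS20 at -101 bp lay furthest upstream. By annotation, 12 summits were in a 5′ UTR exon, 8 were upstream of the gene, 2 were in an intron (RpS23 among them) and 1 was in coding sequence (RpS29). In 9 cases a TSS of another protein-coding gene was also within 500 bp, and none was nearer to the summit. Only RpS27A was tied, since Ip259 is annotated to start at the same base on the same strand.

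**Figure D3:**
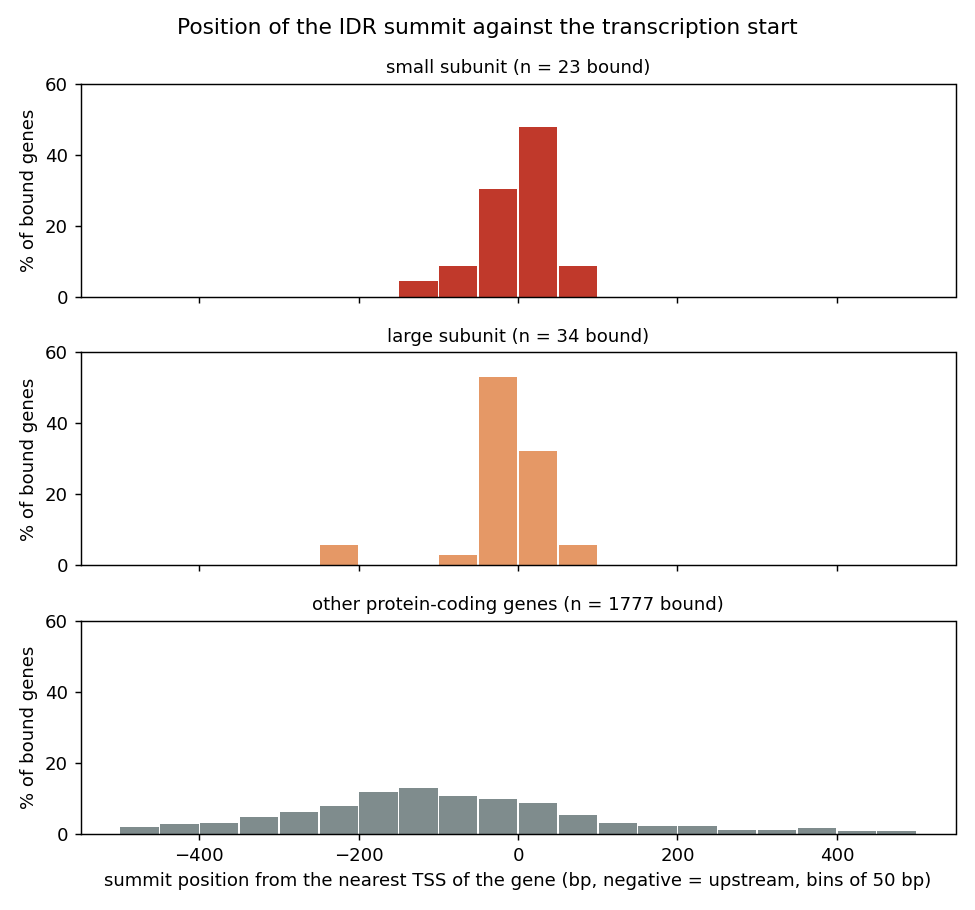
Share of bound genes (y axis, %) by position of the IDR summit against the gene's nearest TSS (x axis, bp, bins of 50 bp) for small subunit genes (top), large subunit genes (middle) and other protein-coding genes (bottom). Both ribosomal families pile up around 0, with 78.3% and 85.3% of summits within 50 bp, while the others spread upstream around a median of -108 bp.

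The exact place differed between replicates at these genes. The summit called in replicate 2 lay downstream of the IDR summit at 21 of 23 genes (91.3%), by a median of 31 bp. In replicate 3 this held at 14 of 19 genes (73.7%), by a median of 10 bp, and in replicate 1 at 4 of 23 (17.4%), with a median of -6 bp. Large subunit genes showed 67.6% downstream in replicate 2, 75.0% in replicate 3 and 35.3% in replicate 1. The other bound protein-coding genes had a median of 0 bp in every replicate, with between 46.6% and 48.3% downstream. Against the TSS, the median summit of the bound small subunit genes was at -4 bp in replicate 1, 47 bp in replicate 2 and 20 bp in replicate 3. The IDR summit comes from the pooled reads, to which all 3 replicates contributed.

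**Figure D4:**
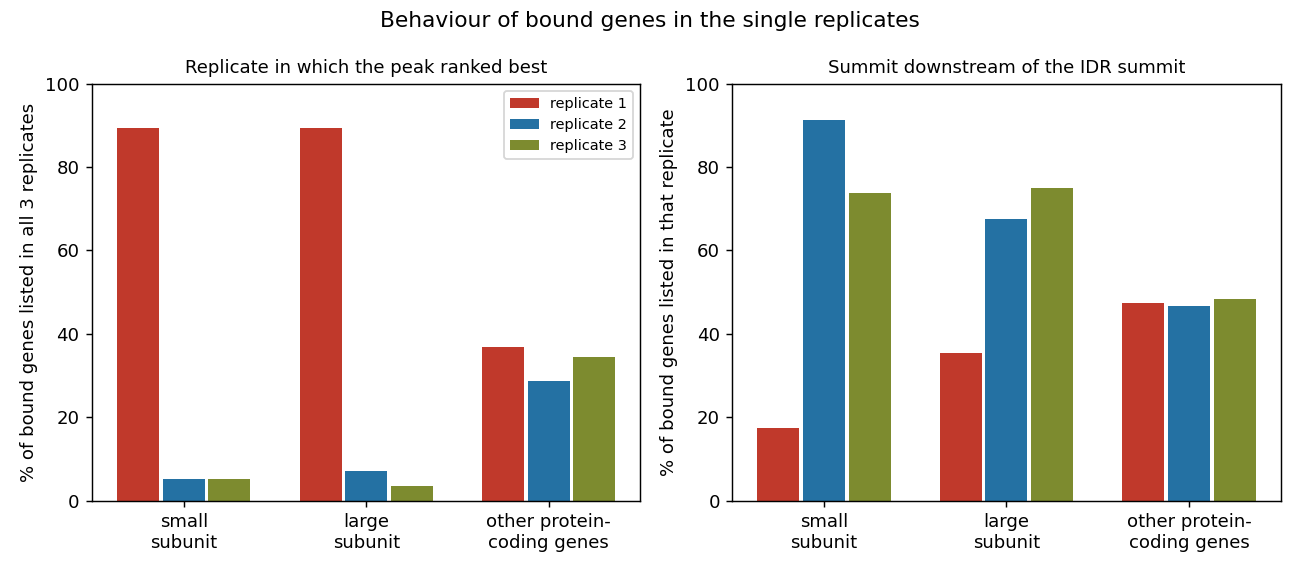
Left: share of bound genes (y axis, %) whose peak ranked best in replicate 1, 2 or 3, among those listed in all 3. Right: share whose replicate summit lay downstream of the IDR summit; small subunit genes are at the left of each panel, with 89.5% ranked best in replicate 1 and 91.3% shifted downstream in replicate 2.

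Reproducibility was uneven between the bound genes. All 3 replicates listed a region at 19 of the 23 (82.6%), against 92.7% of other bound protein-coding genes, and the 4 exceptions, RpS16, RpS28b, RpS27A and RpS29, were all missing from replicate 3. A missing region has no value in that list, so absence of signal there was not shown. In 15 of 23 (65.2%) the region was among the strongest candidates of all 3 replicates, against 52.9% at large subunit genes and 58.0% at other genes. Keeping only IDR peaks among the strongest of 2 replicates left 15 bound small subunit genes without replicate 1, 15 without replicate 2 and 21 without replicate 3, of 23. The same sets held 8.91%, 8.49% and 9.11% of all protein-coding genes, against 13.1% with all IDR peaks, so the loss at small subunit genes was near that over all genes without replicate 1 or 2 and smaller without replicate 3. The 8 genes lost in at least 1 of these 3 sets were RpS16, RpS28b, RpS12, RpS14b, RpS27A, RpS29, RpS21 and RpS20. RpS27A and RpS21 were lost in each.

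Not being bound did not mean that nothing was listed. The pooled list of 30000 candidates had a summit at 30 of 39 small subunit genes (76.9%), against 32.5% of all genes. Any candidate at all was in reach at 31 of 39 genes in replicate 1, 35 in replicate 2 and 27 in replicate 3, against 37.0%, 41.9% and 34.4% of all genes. Of the 16 genes not called bound, 7 had a pooled candidate. RpS30, made in animals as a fusion with a ubiquitin-like protein, missed the IDR list most narrowly: its pooled rank was 5106, where the list ends at 4934, while the lowest bound gene, RpS20, ranked 4389.

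RpS30 had a relative signal of 0.661 in replicate 1, 0.541 in replicate 2 and 0.686 in replicate 3. RpS3, which lines the entry of the messenger RNA channel, had pooled rank 6152 and values of 0.618, 0.611 and 0.331. RpS9 had pooled rank 6275 and 0.291, 0.800 and 0.461. None of these reached 1 in a replicate. RpS2 (rank 6798) had 0.446, 0.470 and 0.375. RpS14a (rank 7803) had 0.882, 0.193 and 0.484. Below them RpS13 stood at rank 11472 and RpS10a at rank 23045.

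RpS5b, RpS24 and RpS15Ab had no pooled candidate but were listed in single replicates. RpS24 was listed only in replicate 2, at rank 3767, as was RpS15Ab at rank 23571. RpS19b, RpS26, RpS28-like and RpS28a had no candidate in reach in any of the lists.

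Of the duplicated genes, 1 copy was bound in every pair. The symbols give 6 pairs, and in 6 of 6 exactly 1 gene was bound: RpS5a, RpS10b, RpS14b, RpS15Aa, RpS19a and RpS28b. All 6 bound copies are on the X chromosome, and each partner is on an autosome except RpS14a, which stands 1156 bp from RpS14b by TSS. Copies of RpS5b, RpS10a and RpS19b are known in Drosophila as forms enriched in the germline, next to a broadly expressed partner. Thus 6 of the 12 paired genes were bound, and 17 of the 27 genes outside pairs, against 13.1% of all protein-coding genes. These 27 include RpS28-like, a further gene with an RpS28 symbol, which was not bound.

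RpS5b had a relative signal of 0.728 in replicate 1 and 0.288 in replicate 2, below RpS5a in both, and no region in replicate 3. RpS10a was not listed in replicate 1 and had 0.201 and 0.320 in replicates 2 and 3, below RpS10b in both. RpS15Ab was listed in replicate 2 alone, at 0.213, against 1.05 for RpS15Aa there, which also had 1.49 in replicate 1 and 1.13 in replicate 3. RpS19b and RpS28a were in no list. Both copies of the tandem pair had a region: RpS14b at 1.53, 0.678 and 0.621 against RpS14a at 0.882, 0.193 and 0.484. RpS14a and RpS14b are near-identical neighbours, and how reads that match both were placed is not given in the sources used here, so their separate values are uncertain.

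By chromosome arm, 8 of 9 small subunit genes on X were bound, where the arm's share over all genes was 14.3%. On 3L it was 3 of 4 (all genes 14.5%), on 2R 4 of 7 (12.0%), on 3R 5 of 12 (12.6%), on 2L 2 of 6 (12.8%) and on chromosome 4 the single gene, RpS3A (all genes 8 of 80, 10%). The share of all genes varied little between the large arms. Among these arms the share of small subunit genes was highest on X, which holds all 6 bound copies of the pairs.

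Several of the promoter words sought were held by both bound and unbound genes, at shares that differed by word. A TCT initiator lay within 10 bp of a TSS in 17 of 23 bound genes (73.9%) and in 9 of 16 unbound ones (56.3%), as in 44 of 54 large subunit genes (81.5%), against 5.02% of all bound genes and 1.74% of all genes. Other words were sought on both strands between 250 bp before and 50 bp after the TSS of the canonical transcript. The Dref word TATCGATA was in 8 of 23 bound and 5 of 16 unbound genes, against 8.94% of all genes. Motif 1 was in 4 of 23 bound genes and 1 of 16 unbound ones (RpS9), against 7.52% of all genes.

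TATAAA, the word of the TATA box, was in 15 of 23 bound genes and 4 of 16 unbound ones, against 45.3% of all genes, and since strand and distance were not restricted a match need not be a TATA box. GAGAG, the word of the GAGA factor, which was in 42.7% of the promoters of all bound genes and 30.2% of all promoters, was in 4 of 23 bound small subunit promoters and in 0 of 16 unbound ones. The E-box CAGCTG was in 5 of 23 and 1 of 16 (all genes 17.9%). The E-box CACGTG, a Myc site, was in 0 of 39 of these promoter windows, against 20.4% of large subunit promoters and 4.25% of all promoters. Motif 7 (CATCNCTA) was in 2 of 23 bound and 0 of 16 unbound genes, against 6.31% of all genes. Median GC content of the same windows was 38.0% in bound genes, 37.3% in unbound ones and 38.0% over all genes.

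Around the summits themselves, within 100 bp to each side, the Dref word stood in 4 of 23 small subunit peaks (17.4%), against 1.94% of the 1860 summits within 500 bp of any protein-coding TSS. GAGAG stood in 3 of 23 (13.0%) against 41.1%, and TATAAA in 4 of 23 (17.4%) against 25.6%. CACGTG, absent from the promoter windows of small subunit genes, stood in 2 of 23 (8.70%) against 2.15%. CAGCTG stood in 5 of 23 (21.7%) against 11.2%. Motif 1 and Motif 7 stood in 2 of 23 each (8.70%), against 1.77% and 2.74%. The TCT word on either strand stood in 20 of 23 (87.0%) against 26.6%. This is not a separate result, because 22 of the 23 windows reach the TSS, where the initiator lies. Of other bound genes 34.6% had the summit within 100 bp of the TSS. Matches describe letters in these windows and not occupancy by a factor.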

How the data were processed

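Peak lists of 3 replicates, of their pooled reads and of the IDR threshold were used on dm6; the dm3 lists were not used here. Per the deposited text notes, each list was made against 1 control alignment. Which aligner, peak caller and threshold were used is not given in the labels or notes. Each region carries the authors' signal value and -log10 q value, as deposited, and a summit. The lists hold no counts, so depth is unknown. TSSs came from Ensembl release 115 and sequence from RefSeq Release 6. Regions overlapping by at least 1 bp were matched. Python 3.11.15, numpy 2.4.6, pandas 2.3.3 and matplotlib 3.10.9 were used, and the bound rule was tested on simulated data. With 1 group and no control group of samples, no test between groups was run. Alternatives were other distances, TSSs, list lengths, overlaps, peaks above the median signal and leaving out each replicate. Named with values in each replicate were the 10 highest and 5 lowest bound genes, both genes of each pair, the 5 best-ranked unbound genes and any gene whose summit was as near to another gene. Results of 3 small subunit genes are not reported here singly, though counts include them. Members, lists and words were chosen with earlier results of these data known.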

Additional observations from a re-analysis of the deposited data

How the results depend on the processing

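The number of bound small subunit genes was 23 with a distance of 200 bp, with the canonical TSS, with the nearest TSS alone and with RpS14a and RpS14b counted once, and 24 with 1000 bp, where RpS19b was added. The share of all genes under the first 3 was 9.38%, 10.6% and 11.2%, and 16.0% with 1000 bp. With peaks above the median signal it was 20 of the small subunit, while the share of all genes moved to 7.47%. Leaving out a replicate gave between 15 and 21 small subunit genes (15 without replicates 1 or 2), between 18 and 26 large subunit genes and between 8.49% and 9.11% of all genes; each such set keeps fewer peaks by construction. Taking only the upper 1 in 2 of each replicate's strongest candidates gave a mean of 38.5% of small subunit genes per replicate, against 57.3%. The median summit position was between 3 and 18 bp, and the median of mean relative signals was 1.22, with 1.01 to 1.55 under the alternatives; among these, setting unlisted regions to the lowest listed signal, chosen after seeing the data, gave 1.17. With a reach of 50 bp, 30 genes held the TCT initiator in place of 26. No paired analysis was possible because the study has 1 group. Without counts, no interval for counting error could be given.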

Other observations

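Small nucleolar RNA genes, which in flies often sit inside introns of ribosomal protein genes, lay within 10 of the 23 bound small subunit genes and within 3 of the 16 unbound ones. RpS5a held 14, RpS7 held 7 and RpS16 held 5. The share over all protein-coding genes is not given here, and gene length was not matched. The shortest unbound genes were RpS28a (304 bp) and RpS28-like (424 bp), and the shortest bound one was RpS18 (870 bp). A link with binding was not tested. Among the genes of proteins tied to ribosomal protein promoters, Dref was bound with its summit at -70 bp, an IDR signal of 345 and rank 695, and Trf2 was bound at -74 bp with a signal of 264 and rank 1187. M1BP and Myc were not bound.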
